A study of Mus musculus with 22 samples.

Results

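The genes of 10 transcription factors of blood stem cells, Runx1, Gata2, Tal1, Meis1, Mecom, Hlf, Erg, Fli1, Lmo2 and Gfi1b, were followed in RNA sequencing of mouse LSK cells. They were picked by symbol, as the rows whose gene ID equals one of these names, and they make up 10 of the 33641 genes in each deposited table. Their rows hold 71 of the 105129 transcripts, of which 52 averaged at least 1 TPM (transcripts per 1000000 transcripts) over the libraries. At that same level all 10 genes stayed in, among 13162 genes tested.

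These factors act in shared complexes. RUNX1, GATA2, TAL1, LMO2, ERG and FLI1 bind many of the same enhancers in stem and progenitor cells, with LMO2 as a bridge that does not touch DNA itself, while MEIS1, HLF and MECOM are best known for keeping stem cells in place. GFI1B is a repressor that brings the histone demethylase LSD1 to its targets and is needed for erythroid cells and platelets, and RUNX1 is needed when the first definitive stem cells arise.

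LSK cells are lineage-negative, Sca-1-positive, Kit-positive bone marrow cells, a gate that holds stem cells and multipotent progenitors. Each of 4 genotypes gave 3 RNA libraries: Chd8-/-P53-/- (double knockout, DKO), Chd8-/- (Chd8 KO), P53-/- (P53 KO) and WT. All were C57BL/6 mice given pI:pC, a double-stranded RNA used to switch on deletion, and their cells were sorted 6 days post deletion and used without culture. CHD8 is a chromatin remodeler and P53 the transcription factor that answers DNA damage. The line that drives the deletion, the age of the mice and whether a library pools animals are not given in the sources used here. The series also holds 4 ATAC-seq and 6 CUT&RUN samples, not analysed here.

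The libraries held facts that bear on these genes. P53 KO replicates 1 and 2 came from a run apart from the other 10 libraries, and mitochondrial transcripts took 2.12% and 1.9% of their TPM, against 5.33% to 6.97% elsewhere. Y-linked genes together held 1.8 to 2.03 TPM in DKO, 94.2 to 116 TPM in Chd8 KO, 0.738, 50.1 and 1.35 TPM in P53 KO and 126, 113 and 1.16 TPM in WT. Sex and genotype therefore cannot be told apart in DKO against Chd8 KO. The targeted genes were lower where the labels name them as deleted, with Chd8 at 34.8 to 44.4 TPM in DKO and 26.2 to 35.6 TPM in Chd8 KO, against 53.1 to 69.4 TPM in P53 KO and 48.2 to 73.9 TPM in WT. Chd8 RNA was thus reduced and not absent, and its gene sum does not show how complete the deletion was. Trp53 held 16.1 to 18.1 TPM in DKO and 17.5 to 24.3 TPM in P53 KO, against 244 to 268 TPM in Chd8 KO and 230 to 268 TPM in WT. The gate's own 8 markers, Kit, Ly6a, Cd34, Flt3 and Slamf1 among them, summed to 1300 to 1340, 1390 to 1560, 1080 to 1480 and 1070 to 1330 TPM in DKO, Chd8 KO, P53 KO and WT, with no marker at 0. In Chd8 KO against WT, 4 of the 8 were called higher and 1 lower, against 9.65% and 6.98% of all tested genes. Nothing in the labels says that replicates came from separate animals, and the Y-linked levels show only that the 3 libraries of WT, and those of P53 KO, did not all come from the same mice. In DKO and Chd8 KO the spread behind a p-value could be technical only. In sorted bulk cells, fewer cells of a type and less RNA per cell cannot be told apart.

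The 10 factors covered a wide range of levels. TPM is scaled by transcript length, so genes can be set in order, and in WT the order ran from Lmo2 at 693 ± 64.6 TPM through Gata2 at 148 ± 13.8 and Erg at 129 ± 10.7 TPM to Mecom at 19.5 ± 1.99 TPM (SD, n = 3 each). Between them stood Meis1 at 76.4 ± 6.14, Hlf at 72.9 ± 14.6, Tal1 at 63.4 ± 9.54, Runx1 at 62.1 ± 8.04, Gfi1b at 57.2 ± 19.2 and Fli1 at 42.3 ± 2.07 TPM. Gata2 and Erg overlapped in their WT libraries, and so did each neighbouring pair from Meis1 down to Fli1, whereas Lmo2, the gap between Erg and Meis1, and Mecom stood clear. Lmo2 lay above 98.6% of the tested genes in WT, and Mecom above 45.8%. Over all 12 libraries Fli1 varied least, with its highest library at 1.25 times its lowest, and Gfi1b and Mecom varied most, at 4.29 and 4.07 times.

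**Figure D1:**
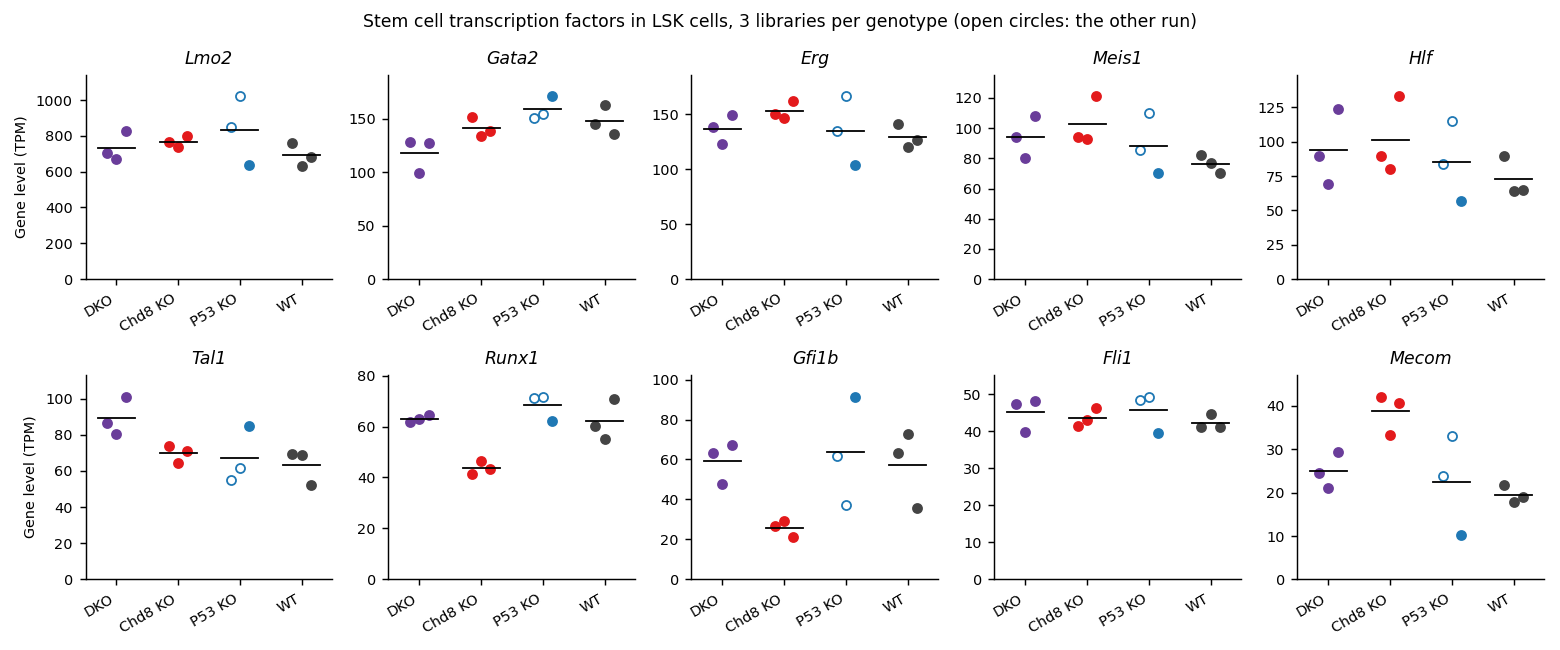
Gene level in TPM (vertical axes, from 0) of each of the 10 factors in DKO, Chd8 KO, P53 KO and WT LSK cells. Each circle is 1 library, the bar is the mean of 3, and open circles are the P53 KO libraries of the other run. Runx1 and Gfi1b sit lower, and Mecom higher, in the 3 Chd8 KO libraries than in the 3 WT libraries.

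The start regions of the genes that passed a test in Chd8 KO are shown first, because motifs of these same factors could be looked for in them. Promoters are the 250 bases before a RefSeq start site on GRCm38.p6, and 8 of the 10 genes matched, with 14 start sites among them; Fli1 and Lmo2 had none in the table. Runx1 runs on the minus strand of chromosome 16 (92601466 to 92826074) and has a distal and a proximal promoter. Gfi1b also lies on the minus strand, on chromosome 2 (28609450 to 28621982). Capitals mark any match, on either strand, to 7 short motifs. Zinc finger factors such as GATA2 are known to bind AGATAA, and core binding factor is known to bind TGTGGT. For ETS factors such as ERG and FLI1 the letters searched were CCGGAA and, as a further form, AGGAAG. For TAL1 with its E protein partners they were the E-box forms CAGCTG and, with 1 base changed, CAGATG. The homeodomain factor MEIS1 was represented by TGACAG. No match overlapped another.
Runx1 distal, chr16:92826075-92826324, minus strand: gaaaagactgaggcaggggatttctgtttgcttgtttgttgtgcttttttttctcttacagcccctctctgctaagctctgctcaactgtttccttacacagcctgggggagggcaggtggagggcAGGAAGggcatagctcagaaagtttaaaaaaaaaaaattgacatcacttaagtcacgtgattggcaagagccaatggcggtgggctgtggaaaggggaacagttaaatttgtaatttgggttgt
Runx1 proximal, chr16:92697330-92697579, minus strand: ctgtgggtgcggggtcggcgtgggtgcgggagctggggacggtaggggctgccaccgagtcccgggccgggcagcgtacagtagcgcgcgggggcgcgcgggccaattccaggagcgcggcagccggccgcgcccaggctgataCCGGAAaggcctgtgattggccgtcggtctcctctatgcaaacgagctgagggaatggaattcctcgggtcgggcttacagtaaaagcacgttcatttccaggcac
Gfi1b, chr2:28621983-28622232, minus strand: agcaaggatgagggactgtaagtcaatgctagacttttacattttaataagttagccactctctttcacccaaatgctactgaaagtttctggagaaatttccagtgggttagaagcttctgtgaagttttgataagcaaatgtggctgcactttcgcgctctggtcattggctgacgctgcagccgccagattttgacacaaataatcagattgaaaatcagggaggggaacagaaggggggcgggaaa

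The Runx1 promoters differed in base composition. The distal one was 45.6% G or C with 2 CpG, and the proximal one 67.6% with 27 CpG, against a median of 52.4% over 32851 promoters of 27025 genes. Each had 1 ETS match, AGGAAG beginning 124 bases before the distal start and CCGGAA beginning 106 bases before the proximal one. Of all promoters, 29.5% hold AGGAAG and 12% hold CCGGAA, so a match is common. None of the 7 motifs was in the Gfi1b window, which says only that these letters are not there. The window does hold TGATAA, which differs from AGATAA by 1 base and was not among the letters searched. Over the 14 promoters, AGATAA was in 2 (Erg and Tal1), or 14.3%, against 9.99% of all. CCGGAA was in 3 (Hlf, Meis1 and Runx1), or 21.4%, against 12% of all, and AGGAAG in 2 (Erg and Runx1), or 14.3%, against 29.5%. TGTGGT was in 1 (Meis1) against 14%, and TGACAG in 2 (Erg and Mecom) against 15.9%. CAGATG was in 1 (Mecom) against 14.4% of all, and CAGCTG in 0 of the 14, against 13%.

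With P53 present, loss of Chd8 went with less Runx1 and less Gfi1b. In Chd8 KO against WT, 0 of the 10 factors were called higher and 2 lower at an adjusted p under 0.05, against 9.65% of all tested genes called higher and 6.98% called lower. Taking all 10, the median change was 0.15 on the log2(TPM + 1) scale, beside 0.02 over all genes. By library, 5 of the 10 did not overlap between the groups, Runx1 and Gfi1b below WT and Meis1, Mecom and Erg above it, where 37.1% of all genes do not overlap. Under median-of-ratios scaling the calls over all genes split as 1038 higher and 1144 lower here, in place of 1270 and 919, and as 558 and 756 in place of 1471 and 486 in DKO against P53 KO. They split as 252 and 380 in place of 455 and 233 in DKO against WT, as 742 and 831 in place of 832 and 554 in DKO against Chd8 KO, and as 116 and 151 in place of 127 and 110 in the interaction described further on. All changes given are log2 differences of TPM + 1 with the SE of limma's fit, and they understate the change of low genes and transcripts.

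Runx1, the DNA-binding subunit of core binding factor, stood at 41.4, 46.6 and 43.3 TPM in Chd8 KO, against 60.3, 55.1 and 70.9 TPM in WT. All Chd8 KO libraries were below all WT libraries, and also below all DKO and P53 KO libraries. The change was -0.49 ± 0.10 (adjusted p = 0.00678), a level 0.712 times that of WT, and the call held in all 26 alternatives, with changes of -0.57 to -0.38 and adjusted p of 0.00399 to 0.0334. In DKO it stood at 61.8, 62.9 and 64.5 TPM, inside the range of WT. Set against Chd8 KO, the DKO value was higher by 0.52 ± 0.10 (adjusted p = 0.0087). Set against WT, it differed by 0.03 ± 0.10 (95% interval -0.18 to 0.24, adjusted p = 0.896). The rise in DKO over Chd8 KO lost its call when Y-linked TPM was added as a covariate (0.40, adjusted p = 0.232) and without DKO replicates 2 and 3 (0.49, adjusted p = 0.247).

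Gfi1b, the LSD1-recruiting repressor of erythroid and megakaryocytic cells, stood at 26.9, 29.3 and 21.3 TPM in Chd8 KO, against 63.1, 72.8 and 35.8 TPM in WT. The groups did not overlap, though WT replicate 3 came close to the Chd8 KO libraries. The change was -1.07 ± 0.32 (adjusted p = 0.0439), or 0.476 times WT. That call was lost in 17 of 26 alternatives, where the change ran from -1.37 to -0.87 over all 26 and the adjusted p reached 0.13. In DKO the gene stood at 63.2, 47.5 and 67.3 TPM, all above the Chd8 KO libraries (1.17 ± 0.32, adjusted p = 0.0434, called in 10 of 26 alternatives), and its difference from WT was 0.10 ± 0.32 (95% interval -0.61 to 0.80, adjusted p = 0.895). Leaving out any DKO or Chd8 KO library, P53 KO replicate 1 or WT replicate 1 ended both calls, and leaving out WT replicate 2 ended the one against WT.

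Markers of some other cell types were also lower in Chd8 KO than in WT. The 11 erythroid markers, Gata1 and Klf1 among them, summed to 801, 1270 and 1750 TPM in DKO and to 117, 178 and 102 TPM in Chd8 KO. The same markers summed to 308, 295 and 1760 TPM in P53 KO and to 1030, 1030 and 518 TPM in WT. No erythroid marker was at 0 in a whole group. In Chd8 KO against WT, 0 of the 11 rose and 6 fell, where 9.65% of all tested genes rose and 6.98% fell. The same shares stand beside the counts of the marker lists that follow. The 8 megakaryocyte and platelet markers summed to 116 to 153 TPM in Chd8 KO, against 197 to 288 TPM in WT, with 0 called higher and 2 lower of 7 tested. The 10 B and T lymphoid markers summed to 48.9 to 95.5 TPM in Chd8 KO and 430 to 732 TPM in WT, with 7 of 9 tested called lower. The 7 mature neutrophil markers summed to 68.7 to 297 TPM in Chd8 KO and 11.9 to 837 TPM in WT with 0 called. The 9 mast cell and basophil markers summed to 79.6 to 153 TPM and 210 to 310 TPM, with 3 higher and 2 lower of 8 tested. That last sum pooled opposite changes. Mcpt8, its leading gene in WT, held at most 39.1 TPM in Chd8 KO, against at least 130 TPM in WT. Fcer1a, Ms4a2 and Hdc also had lower means in Chd8 KO. Mcpt4, Tpsb2 and Cma1 averaged 6.02, 4.11 and 8.55 TPM there, against 0.433, 0.216 and 0.596 TPM in WT. Cpa3 and Tpsab1 had higher means there too. The part of all these cell types in the Gfi1b and Runx1 results was not tested. The highest Gfi1b library, P53 KO replicate 3 at 91.4 TPM, was also the highest in erythroid and megakaryocyte markers, at 1760 and 380 TPM. The 3 Chd8 KO libraries were lowest in both Gfi1b and erythroid markers. Replicates 2, 1 and 3 held Gfi1b at 29.3, 26.9 and 21.3 TPM and erythroid markers at 178, 117 and 102 TPM. Not every pair of libraries kept that order. WT replicate 3 held less Gfi1b than P53 KO replicate 1, at 35.8 and 61.7 TPM, but more erythroid marker TPM, at 518 and 308. That pair comes from different runs.

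**Figure D2:**
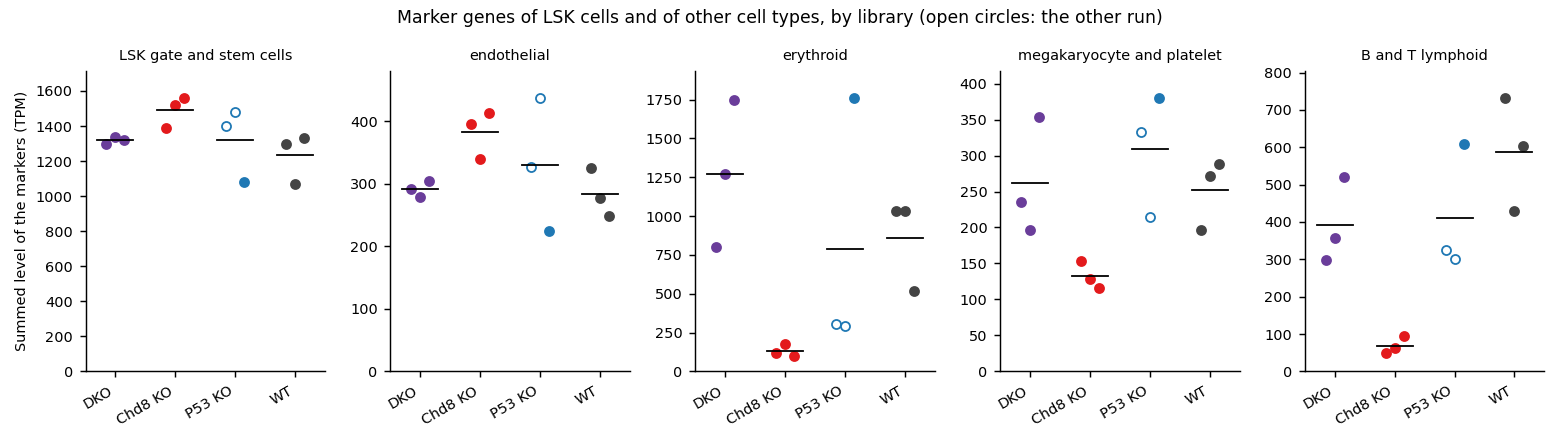
Summed TPM of marker genes (vertical axes, from 0) of the LSK gate, endothelial, erythroid, megakaryocyte and B and T lymphoid cells in DKO, Chd8 KO, P53 KO and WT. Circles are libraries, bars are means of 3, and open circles are the other run; the Chd8 KO libraries are lowest for erythroid markers, at 102 to 178 TPM, against 518 to 1030 TPM in WT.

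Mecom, Meis1 and Hlf, the factors tied most closely to stem cell upkeep, had higher means in Chd8 KO than in WT, but none passed the test. Mecom, which encodes the zinc finger protein EVI1, stood at 42.1, 33.3 and 40.7 TPM in Chd8 KO, against 21.7, 17.8 and 19.0 TPM in WT. No libraries overlapped. The change was 0.95 ± 0.32, or 1.93 times WT, with an interval of 0.25 to 1.65 and an adjusted p of 0.0636. Mecom was called in 5 of 26 alternatives: with the run as a covariate (adjusted p = 0.00301), in the 10 libraries of 1 run (0.00273), in a fit on the compared groups only (0.00772), and without P53 KO replicate 2 or replicate 3. The change itself was 0.95 in each of these, and what differed was the estimated spread. P53 KO held 23.8, 33.1 and 10.3 TPM. In DKO, Mecom stood at 24.6, 21.1 and 29.3 TPM, all below the Chd8 KO libraries, with a change of -0.61 ± 0.32 against Chd8 KO (adjusted p = 0.236) and 0.34 ± 0.32 against WT (adjusted p = 0.574). Against P53 KO it was 0.28 ± 0.32 (adjusted p = 0.582), a value that was 1.19 (adjusted p = 0.0234) in the 10 libraries of 1 run and -0.17 without P53 KO replicate 3. In those 10 libraries P53 KO is replicate 3 alone, the lowest in Mecom, and it is assumed to vary like the other groups. Without that library P53 KO is wholly of the other run, so the -0.17 cannot tell run from genotype. Leaving it out also made DKO against Chd8 KO a call (adjusted p = 0.0298).

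Meis1, a homeodomain factor, stood at 94.2, 92.8 and 121 TPM in Chd8 KO, against 82.3, 76.8 and 70.1 TPM in WT. All Chd8 KO libraries were above WT, with a change of 0.41 ± 0.17 (adjusted p = 0.117; called, at 0.0291, when only the most abundant transcript was used). Hlf, a PAR-type basic leucine zipper factor, stood at 89.4, 80.5 and 133 TPM in Chd8 KO, against 89.8, 64.0 and 65.0 TPM in WT. Its groups overlapped and its change was 0.45 ± 0.29 (95% interval -0.18 to 1.08, adjusted p = 0.32). In DKO, Meis1 stood at 94.2, 80.1 and 108 TPM and Hlf at 89.3, 69.4 and 124 TPM, both overlapping Chd8 KO and WT. Meis1 and Hlf lie on chromosome 11, 50.7 and 20.8 Mb from Trp53. The 9 endothelial markers, of a cell type that also uses Erg, Fli1, Gata2 and Tal1, summed to 340 to 413 TPM in Chd8 KO and 248 to 325 TPM in WT. Of them 1 was called higher and 0 lower, beside 9.65% and 6.98% of all tested genes. Egfl7 and Tie1 led the sum, at means of 174 and 79.1 TPM in Chd8 KO. Cdh5, Kdr and Cldn5 averaged 2.45, 1.85 and 1.83 TPM there, against 0.648, 0.854 and 1.08 TPM in WT. Only Pecam1 had a lower mean, 44.4 against 63.6 TPM. The part of endothelial cells in these values was not tested.

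**Figure D3:**
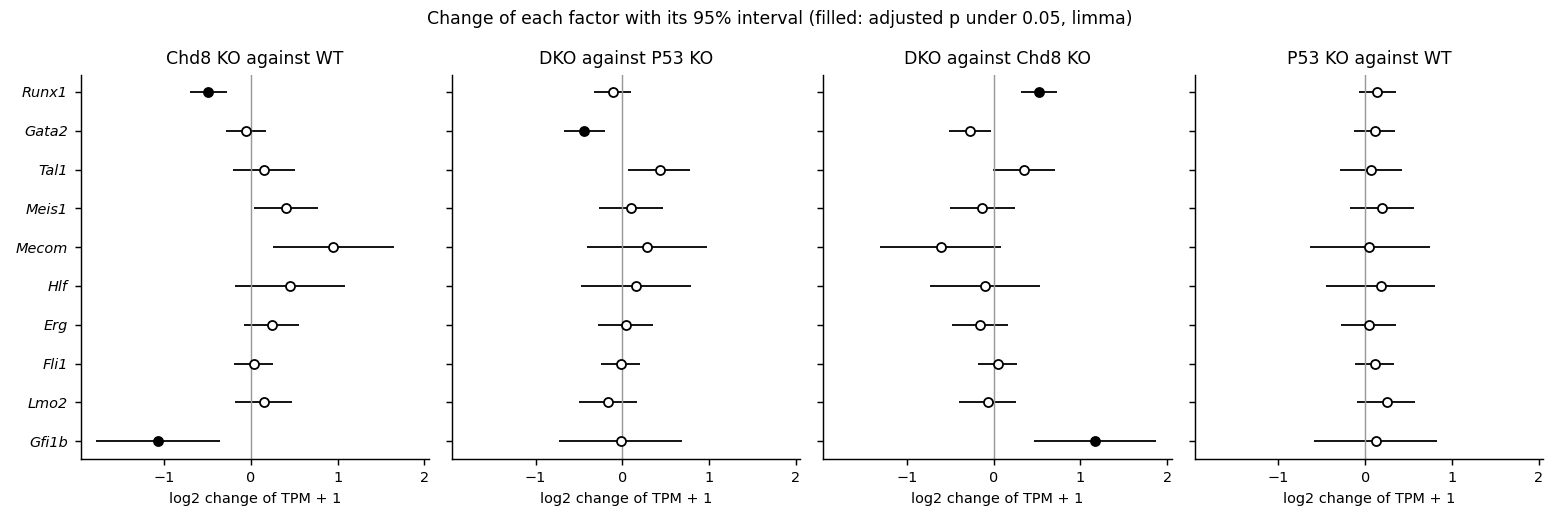
Change of each factor on the log2(TPM + 1) scale (horizontal axes) with its 95% interval, for Chd8 KO against WT, DKO against P53 KO, DKO against Chd8 KO and P53 KO against WT. Filled circles have an adjusted p under 0.05 in limma: Runx1 and Gfi1b in the Chd8 KO and DKO against Chd8 KO panels, and Gata2 in DKO against P53 KO.

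Gata2 was lower in DKO than in P53 KO, the 1 call among the 10 in that comparison. In DKO against P53 KO, 0 of the 10 were called higher and 1 lower, against 11.2% and 3.69% of all tested genes, and the median change was 0.01, beside 0.11 over all genes. The 1471 and 486 calls over all genes became 183 and 127 with the run as a covariate, 180 and 118 in the 10 libraries of 1 run and 202 and 117 on the compared groups only. In the first 2 of these settings Mecom, higher in DKO, was the 1 factor called and Gata2 was not. Gata2, a zinc finger factor that stem cells need to survive, stood at 128, 99.2 and 127 TPM in DKO, against 151, 155 and 171 TPM in P53 KO. The groups did not overlap, and it was the only one of the 10 without overlap in this comparison, where 35.3% of all genes have none. The change was -0.44 ± 0.11 (adjusted p = 0.0246), or 0.739 times P53 KO. In the 10 libraries of 1 run, where P53 KO has 1 library, it was -0.54 with an adjusted p of 0.109, and with the run as a covariate -0.54 with an adjusted p of 0.0936. The call was also lost without DKO replicate 2, P53 KO replicate 1 or P53 KO replicate 2, without DKO replicates 2 and 3 together, and in a fit on the compared groups only, where the adjusted p was 0.0814.

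In Chd8 KO, Gata2 stood at 152, 134 and 139 TPM, against 145, 163 and 136 TPM in WT. These overlapped, with a change of -0.06 ± 0.11 (95% interval -0.29 to 0.18, adjusted p = 0.757). Gata2 in DKO was below all WT libraries too, at -0.33 ± 0.11 (adjusted p = 0.104), and below all Chd8 KO libraries, at -0.27 ± 0.11 (adjusted p = 0.132). Neither passed the test.

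Tal1, the basic helix-loop-helix factor of the complex, had its highest libraries in DKO. It stood at 86.6, 80.4 and 101 TPM in DKO, 74.0, 64.3 and 71.1 TPM in Chd8 KO, 54.7, 61.7 and 85.1 TPM in P53 KO and 69.1, 68.7 and 52.3 TPM in WT. DKO did not overlap WT or Chd8 KO, while P53 KO replicate 3 reached into the DKO range. The change was 0.49 ± 0.16 in DKO against WT (adjusted p = 0.108), 0.35 ± 0.16 against Chd8 KO (adjusted p = 0.198) and 0.43 ± 0.16 against P53 KO (adjusted p = 0.102). It was called against WT with the run as a covariate (adjusted p = 0.0394), in the 10 libraries of 1 run (0.0492) and without P53 KO replicate 3 (0.0396). Against P53 KO it was 0.61 (adjusted p = 0.0122) without P53 KO replicate 3, but 0.06 in the 10 libraries of 1 run. The first fit leaves P53 KO wholly in the other run, so run and genotype cannot be told apart. The second leaves P53 KO with 1 library. In Chd8 KO against WT, Tal1 changed by 0.15 ± 0.16 (95% interval -0.21 to 0.51, adjusted p = 0.587).

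Lmo2, Erg and Fli1 were called in no comparison when all 12 libraries were fitted, though Lmo2 was in P53 KO against WT without P53 KO replicate 3, as given further on. Lmo2, the LIM-domain bridge, stood at 767, 740 and 798 TPM in Chd8 KO, against 762, 634 and 684 TPM in WT, a change of 0.15 ± 0.15 (95% interval -0.18 to 0.48). Erg, an ETS factor of stem cells and endothelium, stood at 150, 146 and 162 TPM in Chd8 KO, against 141, 120 and 126 TPM in WT, without overlap and with a change of 0.24 ± 0.14 (adjusted p = 0.288). Fli1, the related ETS factor, stood at 41.3, 42.9 and 46.2 TPM in Chd8 KO, against 41.2, 44.7 and 41.0 TPM in WT, a change of 0.04 ± 0.10 (95% interval -0.19 to 0.26). In DKO these genes stood at 672 to 827, 123 to 149 and 39.9 to 48.1 TPM, each overlapping WT.

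In the remaining comparisons few of the factors stood out. In DKO against Chd8 KO, 2 of the 10 were called higher, Runx1 and Gfi1b, and 0 lower, against 6.32% and 4.21% of all tested genes. There Runx1, Tal1 and Gfi1b were higher and Gata2 and Mecom lower without overlap, 5 of 10, where 41.9% of all genes do not overlap. In DKO against WT, limma called 0 of the 10 in either direction, with 2 at an unadjusted p under 0.05, against 3.46% of all genes called higher and 1.77% lower. Gata2 and Tal1 had no overlap there, 2 of 10, against 31.2% of all genes. In P53 KO against WT, limma called 0 of the 10, against 0.182% of all genes, and 0 of the 10 had an unadjusted p under 0.05. Those 24 calls over all genes became 1253 without P53 KO replicate 3, with 1 of the 10 called. That fit leaves P53 KO wholly in the other run, so run and genotype cannot be told apart in it.

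P53 KO was the group with the widest spread for most of these genes. Its replicate 3 held the lowest Meis1, Mecom, Hlf, Erg and Fli1 of the 12 libraries, at 70.0, 10.3, 57.1, 104 and 39.6 TPM, and the highest Gata2 and Gfi1b, at 171 and 91.4 TPM. Replicates 1 and 2, of the other run, held Runx1 at 71.1 and 71.7, Fli1 at 48.4 and 49.3 and Lmo2 at 847 and 1020 TPM, above all other 10 libraries. Mecom changed by 0.05 ± 0.32 in P53 KO against WT, and by -0.85 (adjusted p = 0.336) in the 10 libraries of 1 run. Lmo2 changed by 0.25 ± 0.15, by -0.12 (adjusted p = 0.869) in those 10, and by 0.43 (adjusted p = 0.0451) without replicate 3. In those 10 libraries P53 KO is replicate 3 alone, so the run and that library cannot be told apart. Without replicate 3, P53 KO is wholly of the other run, so run and genotype cannot be told apart there.

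Whether Chd8 loss acted differently once P53 was gone was tested as an interaction, the change in DKO against P53 KO minus the change in Chd8 KO against WT. Limma called 0 of the 10 in it, against 1.8% of all genes called, and 3 of the 10 had an unadjusted p under 0.05. Over all genes the calls numbered 237, against 1562 without P53 KO replicate 3 and 95 with the run as a covariate. Without P53 KO replicate 3 that group is wholly of the other run, so run and P53 loss cannot be told apart in such fits. The interaction value was 0.38 ± 0.14 for Runx1 (adjusted p = 0.178), -0.38 ± 0.15 for Gata2 (adjusted p = 0.216) and 1.05 ± 0.45 for Gfi1b (adjusted p = 0.24). For Mecom it was -0.67 ± 0.45 (adjusted p = 0.419). It was 0.24 in the 10 libraries of 1 run and -1.12 (adjusted p = 0.0159) without P53 KO replicate 3. For Runx1 it ran from 0.28 to 0.72 over 25 alternatives and was called in 1 of them, with only the most abundant transcript (0.72, adjusted p = 0.0183). Gene sums thus did not show that the Runx1 and Gfi1b changes differed between the P53 backgrounds.

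The transcripts of these genes gave few calls of their own. In Chd8 KO against WT 2 of the 52 were called, both higher, against 4.31% of all 38181 transcripts. The count was 1 in DKO against WT (0.93% of all), 1 in DKO against Chd8 KO (2.15%), and 0 in DKO against P53 KO (4.03%), in P53 KO against WT (0.105%) and in the interaction (0.437%). At an unadjusted p under 0.05 limma gave 15, 10, 9, 6, 7 and 7 of the 52 in these comparisons. No promoter above is assigned to a transcript, because the tables used here do not pair them.

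The leading Runx1 transcript, ENSMUST00000023673.13, made 38.4% to 63.5% of the gene's TPM. It stood at 37.7, 38.4 and 41.0 TPM in DKO and 23.6, 26.0 and 26.6 TPM in Chd8 KO, without overlap, a change of 0.60 ± 0.10 (adjusted p = 0.0132). In P53 KO it held 29.2, 27.6 and 35.1 TPM, and in WT 32.8, 33.4 and 33.4 TPM. Chd8 KO was below WT in every library, at -0.38 ± 0.10 (adjusted p = 0.0594), and its interaction was 0.72 ± 0.14 (adjusted p = 0.0592). Both were called without P53 KO replicate 3, with adjusted p of 0.0167 and 0.00253. The interaction then rests on P53 KO libraries of the other run alone, so run and P53 loss cannot be told apart in it. The call in DKO against Chd8 KO was lost without DKO replicate 3 or Chd8 KO replicate 1, and under median-of-ratios scaling (0.49, adjusted p = 0.109). ENSMUST00000168195.7, a further Runx1 transcript, stood at 22.2 and 19.7 TPM in P53 KO replicates 1 and 2, and at 4.55 to 11.6 TPM in the other 10 libraries. The high Runx1 gene sums of those 2 libraries thus came with a transcript that set their run apart.

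For Gfi1b the 2 main transcripts moved alike. ENSMUST00000028156.7 stood at 18.5, 15.8 and 14.4 TPM in Chd8 KO, against 33.9, 43.8 and 23.6 TPM in WT (-0.98 ± 0.34, adjusted p = 0.138). ENSMUST00000164290.7 stood at 6.24, 6.60 and 6.92 TPM in Chd8 KO, against 17.7, 18.9 and 12.2 TPM in WT (-1.16 ± 0.32, adjusted p = 0.0677). Neither overlapped between the groups, and neither passed the test, although the second was called without P53 KO replicate 2 or 3 and the first without P53 KO replicate 2. Their shares of the gene were 63.4 ± 8.21% and 26.1 ± 5.58% in Chd8 KO, against 60.0 ± 6.12% and 29.3 ± 4.20% in WT (SD, n = 3).

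One Tal1 transcript rose. ENSMUST00000162489.1 stood at 14.5, 15.1 and 13.4 TPM in DKO, 12.2, 11.3 and 8.93 TPM in Chd8 KO, 7.71, 11.0 and 11.3 TPM in P53 KO and 4.77, 7.00 and 5.37 TPM in WT. Every library of the knockouts was above every WT library. It was called in Chd8 KO (0.82 ± 0.18, adjusted p = 0.0294) and in DKO (1.20 ± 0.18, adjusted p = 0.0121) against WT, and not in P53 KO (0.71 ± 0.18, adjusted p = 0.192). Mecom's ENSMUST00000172694.7 stood at 2.63, 1.89 and 3.14 TPM in Chd8 KO, against 0.194, 1.01 and 0.104 TPM in WT (1.34 ± 0.33, adjusted p = 0.0476, and 2.68 at a pseudocount of 0.1), a call lost in 12 of 16 alternatives and kept without DKO replicate 2 or 3, P53 KO replicate 3 or WT replicate 2. The Tal1 transcript lost its call in Chd8 KO without DKO replicate 1, Chd8 KO replicate 1 or 2, or WT replicate 1 or 3 and under median-of-ratios scaling (adjusted p = 0.0529), and in DKO without WT replicate 1 or any DKO library.

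**Figure D4:**
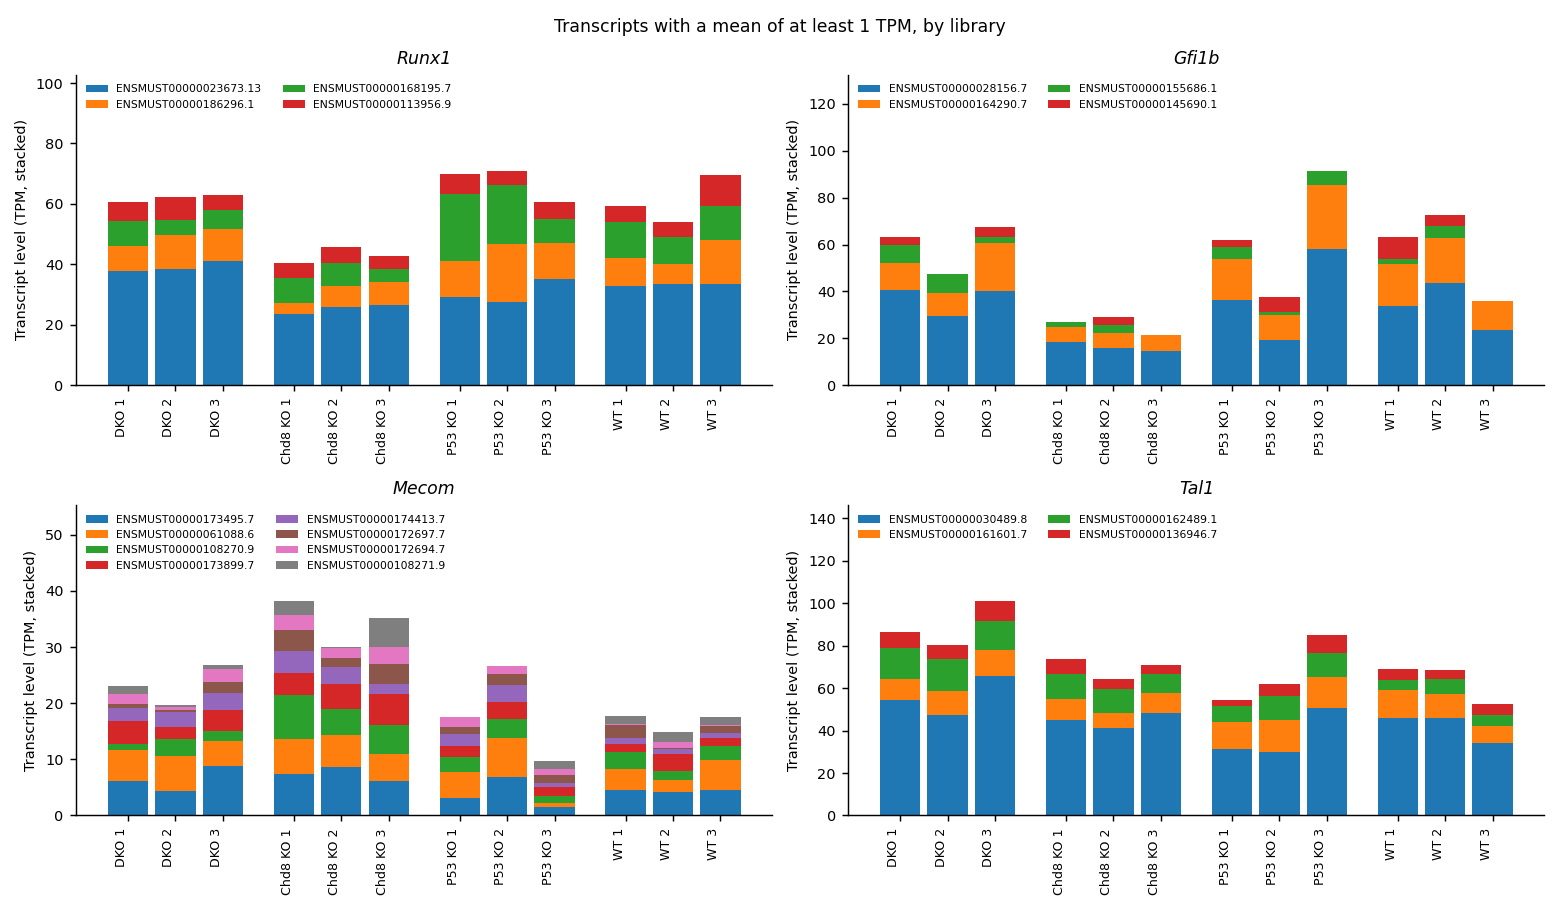
Stacked transcript levels in TPM (vertical axes, from 0) of Runx1, Gfi1b, Mecom and Tal1 in each library, with the 3 libraries of DKO, Chd8 KO, P53 KO and WT from left to right. Only transcripts with a mean of at least 1 TPM are drawn; the Runx1 transcript ENSMUST00000168195.7 is tallest in P53 KO libraries 1 and 2, at 22.2 and 19.7 TPM.

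The share of each transcript within its gene was tested as well. None of the 52 was called in Chd8 KO against WT, in DKO against P53 KO or in the interaction, with 4, 4 and 5 at an unadjusted p under 0.05 in limma, where 0.36%, 0.363% and 0.0148% of all 33875 transcripts tested were called. The Lmo2 transcripts ENSMUST00000111143.7, ENSMUST00000123437.7 and ENSMUST00000138815.1 and the Fli1 transcript ENSMUST00000183767.1 were also above all other 10 libraries in P53 KO replicates 1 and 2. Altogether 11.5% of the 52 lay above and 3.85% below in that way, against 7.68% and 10.4% of all transcripts.

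Transcripts for a few of the proteins that work with these factors changed in Chd8 KO, in both directions. Of 23 genes for complex partners and cofactors, 2 rose and 4 fell against WT, with a median change of -0.04, where 9.65% of all tested genes rose and 6.98% fell. Tcf3, which encodes the E proteins that pair with TAL1, fell to 118 ± 5.80 TPM in Chd8 KO, against 151 ± 10.3 TPM in WT (-0.35 ± 0.09, adjusted p = 0.0194). The corepressor gene Ctbp2, whose product binds EVI1, rose by 0.69 ± 0.11 (adjusted p = 0.00255), and Pbx3 rose by 0.52 ± 0.13 (adjusted p = 0.0244). Without Chd8 KO replicate 1 or 2 or WT replicate 1, Tcf3 and Pbx3 lost their calls in Chd8 KO against WT, and Pbx3 also without Chd8 KO replicate 3 or WT replicate 3. Over all 26 alternatives the call was lost in 4 for Tcf3, 9 for Pbx3 and 1 for Ctbp2.

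Of 19 related factors of the same families, 17 were tested, and 1 rose and 3 fell in Chd8 KO against WT (median -0.02), beside the same 9.65% and 6.98% of all genes. Ets1, an ETS factor of lymphoid cells, fell by 1.37 ± 0.28 (adjusted p = 0.008), to 4.92 ± 1.01 TPM in Chd8 KO, against 14.5 ± 3.82 TPM in WT. Gata1, the erythroid and megakaryocytic GATA factor, fell by 1.37 ± 0.42 (adjusted p = 0.0483, lost in 18 of 26 alternatives). Nfil3, a basic leucine zipper factor, fell by 0.72 ± 0.17 (adjusted p = 0.0164), a call lost without Chd8 KO replicate 1 or 3 or WT replicate 1 or 3. For Gata1 the same held for every DKO, Chd8 KO and WT library and for P53 KO replicate 1. Tef, which belongs to the PAR family with HLF, rose by 0.67 ± 0.15 (adjusted p = 0.0126). Tef was also called in DKO against WT, the 1 gene of this list that was.

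Of 22 other regulators of stem and progenitor cells, 2 rose and 4 fell in Chd8 KO against WT (median -0.09), again with 9.65% and 6.98% over all genes. Zbtb16, the zinc finger factor PLZF, fell to 1.38 ± 0.289 TPM in Chd8 KO, against 5.38 ± 0.128 TPM in WT (-1.43 ± 0.16, adjusted p = 0.000305). Id2, an inhibitor of E proteins, fell by 1.69 ± 0.25 (adjusted p = 0.00178), while its relative Id1 rose by 1.53 ± 0.32 (adjusted p = 0.00946). Satb1, a chromatin organizer of lymphoid progenitors, fell by 1.52 ± 0.33 (adjusted p = 0.0106), a call lost in 2 of 26 alternatives. Id2 was called in the interaction (2.30 ± 0.36, adjusted p = 0.00864), at 13.7 ± 3.25 TPM in DKO against 8.52 ± 0.474 TPM in P53 KO, and 3.48 ± 1.66 TPM in Chd8 KO against 13.1 ± 3.25 TPM in WT. That interaction call was lost in 3 of 25 alternatives.

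Of 19 genes known as targets of these factors, 3 rose and 2 fell in Chd8 KO against WT (median -0.06), where the shares over all genes were 9.65% and 6.98%. Itga2b, the integrin CD41 and a RUNX1 and GATA target, fell to 50.2 ± 2.79 TPM, against 99.2 ± 3.14 TPM in WT (-0.97 ± 0.14, adjusted p = 0.00167). Flt3, a receptor of lymphoid-primed progenitors, fell by 1.44 ± 0.36 (adjusted p = 0.0208). Tek, the angiopoietin receptor TIE2, rose by 1.02 ± 0.17 (adjusted p = 0.003) and Procr, the stem cell surface protein EPCR, by 1.48 ± 0.40 (adjusted p = 0.0291). Flt3 lost its call without Chd8 KO replicate 1 or 2 or WT replicate 1 or 3, and Procr without any Chd8 KO library or WT replicate 2 or 3. Over all 26 alternatives Flt3 lost its call in 6 and Procr in 7. Itga2b and Flt3 are also markers of megakaryocytes and of the LSK gate. In DKO against P53 KO, 2 partners, 1 other regulator and 2 targets rose and 1 partner and 1 other regulator fell. Limma called 0 related factors there, and of all tested genes 11.2% rose and 3.69% fell. Tek was among the targets that rose (0.80 ± 0.17, adjusted p = 0.0139). Its call was lost in 5 of 26 alternatives, among them without DKO replicate 1 or 3 or P53 KO replicate 1.

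**Figure D5:**
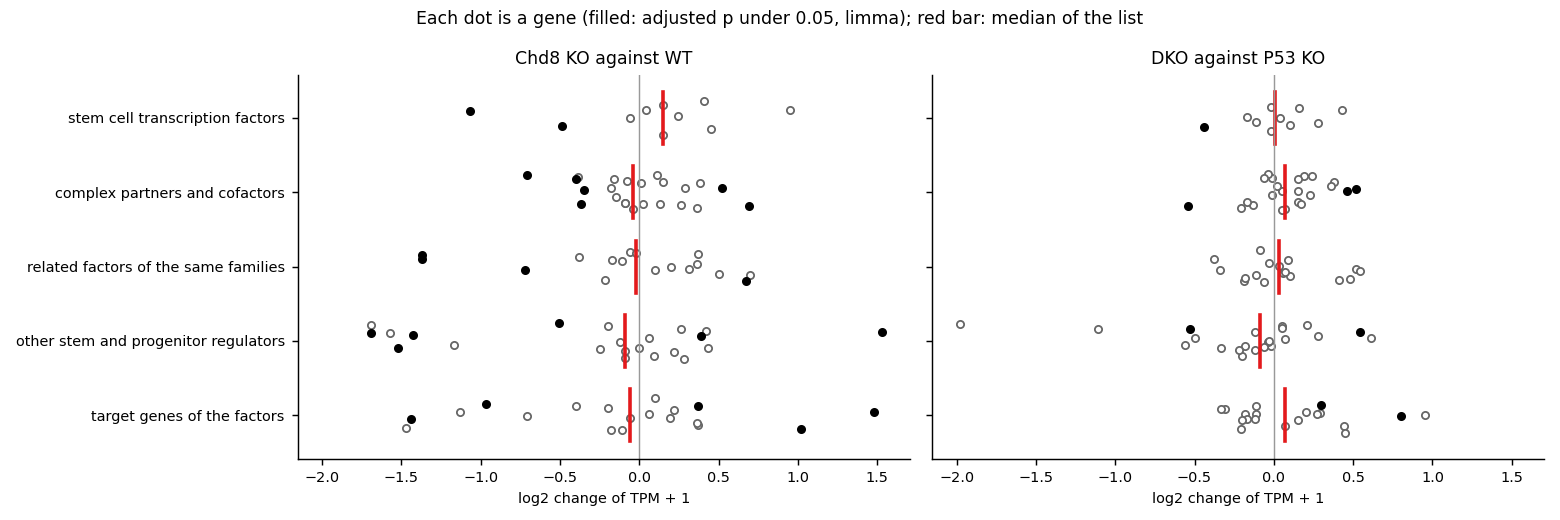
Change on the log2(TPM + 1) scale (horizontal axes) of the 10 stem cell transcription factors and of 4 lists of associated genes, in Chd8 KO against WT and in DKO against P53 KO. Each dot is a gene, filled where limma's adjusted p was under 0.05, and the red bar is the list's median, which runs from -0.09 to 0.15 in Chd8 KO against WT.

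For each factor the gene with the most alike pattern over the 12 libraries was found among 10097 genes averaging 5 TPM or more, predicted gene models left out, by Pearson's r on log2(TPM + 1). Gfi1b was most like Smim1 (r = 0.975), which encodes the Vel blood group protein of red cells. Erg was most like Mfng (0.973), Runx1 like Dgkd (0.971) and Mecom like Smarca2 (0.963). The others were Hlf with Ptpn21 (0.959), Meis1 with Fam171a1 (0.956), Tal1 with Pacsin2 (0.948), Lmo2 with Naxd (0.925), Gata2 with Fgf3 (0.909) and Fli1 with Odf3b (0.863). Each is the highest of many values over libraries that share genotype, run and cell makeup, and is a description.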

How the data were processed

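RNA sequencing of LSK cells gave 12 libraries, 3 for each of 4 genotypes. The authors deposited 1 table of TPM per transcript for each library. The submitters' processing notes name STAR 2.6.1e and featureCounts 1.6.2 with GRCm38 among their tools, but the tool that made the TPM, whether strand was used and how reads of overlapping or antisense genes were split are not given in the sources used here. The TPM of every library sum to 1000000, so depth is unknown and no counting error can be given. Whether a gene lost RNA or others gained it cannot be read from such shares: median-of-ratios scaling shifts the median gene from 0.11 to 0.00 in DKO against P53 KO, from 0.09 to -0.00 in DKO against WT and from 0.10 to 0.01 in the interaction, and by at most 0.06 in the other comparisons.

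Transcripts were summed by gene. The 13162 genes averaging 1 TPM or more were fitted as log2(TPM + 1), using limma 3.58.1 (R 4.3.3), with 1 mean per genotype over all 12 libraries, a variance trend, 8 residual degrees of freedom and two-sided tests. Benjamini-Hochberg adjustment ran over all genes, and calls required an adjusted p under 0.05. Transcripts (38181) and the log ratio of a transcript to the rest of its gene (33875) were fitted alike. The fit was tested on simulated data.

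The members, the gene lists (complex partners, related factors, other regulators, targets, and markers of the LSK gate, erythroid, megakaryocyte, mast, lymphoid, neutrophil and endothelial cells) and the alternatives were chosen with earlier results of these data known. Named genes are the 10 factors, their transcripts, up to 4 genes of each list with the smallest p called in Chd8 KO against WT and up to 4 called in the interaction, and each factor's most alike gene; some of these are not reported here. Tek in DKO against P53 KO, the other transcripts that set the runs apart and single markers were named after their values were seen. Alternatives changed 1 choice at a time: pseudocounts of 0.1 and 0.5, no filter or a filter at 5 TPM, quantile normalization, median-of-ratios scaling, only the groups compared, no variance trend, the replicate block, the run or the Y-linked level as a covariate, 1 run only, the most abundant transcript, and libraries left out. Tables were read and drawn in Python 3.11.15 with matplotlib 3.10.9, numpy 2.4.6 and pandas 2.3.3.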

Additional observations from a re-analysis of the deposited data

How the results depend on the processing

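Single values of the factors, their transcripts and the list genes were refitted under up to 26 alternatives each, and 1338 of 1563 refits kept their direction and their side of the threshold. The number of the 10 factors called in Chd8 KO against WT was 2, and it was 1 with no filter on low values, median-of-ratios scaling, quantile normalization, no variance trend, the replicate block, the Y-linked covariate and no DKO replicates 2 and 3. In DKO against Chd8 KO it was 2, and 1 under the first 5 of these and with the most abundant transcript, but 0 with the Y-linked covariate and with no DKO replicates 2 and 3. Both counts were 3 with the run as covariate, in the 10 libraries of 1 run and on only the groups compared. In DKO against P53 KO it was 1, against 0 on only the groups compared and with no DKO replicates 2 and 3, and 2 with the most abundant transcript. In DKO against WT it was 1 with the run as covariate and in the 10 libraries of 1 run, and in the interaction 1 with the most abundant transcript. With 1 library left out these counts ran from 1 to 3 in Chd8 KO against WT and in DKO against Chd8 KO, from 0 to 2 in DKO against P53 KO, and from 0 to 1 in the other 3; every gain above 0 in those 3, and the 2 in DKO against P53 KO, came without P53 KO replicate 3.

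Of 52 transcripts, the 2 called in Chd8 KO against WT became 1 at a pseudocount of 0.1 and with the replicate block, 0 with median-of-ratios scaling and 7 in the 10 libraries of 1 run. The 1 called in DKO against WT became 2 with median-of-ratios scaling and in those 10 libraries, and the 1 in DKO against Chd8 KO became 0 and 3. With 1 library left out the ranges were 0 to 7 in Chd8 KO against WT, 0 to 6 in P53 KO against WT, 0 to 2 in DKO against WT, 0 to 4 in DKO against Chd8 KO, 0 to 8 in DKO against P53 KO and 0 to 6 in the interaction. For transcript shares they were 0 to 7 in DKO against P53 KO and 0 to 5 in the interaction. The highest of each range came without P53 KO replicate 3. In DKO against WT, leaving out Chd8 KO replicate 2 gave 2 as well. Without P53 KO replicate 3, the comparisons that use P53 KO cannot tell run from genotype.

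Signs turned for values near 0 or resting on P53 KO. Runx1 in DKO against WT was -0.07 with median-of-ratios scaling, -0.04 with quantile normalization, -0.05 with the Y-linked covariate, -0.00 with no DKO replicates 2 and 3, and -0.05 to 0.13 with 1 library left out. Mecom in P53 KO against WT was -0.85 with the run as covariate and in 1 run, -0.33 with its most abundant transcript and -0.29 to 0.51 with 1 library left out. Its interaction was 0.24, 0.24 and 0.13 under the first 3 of these, and its change in DKO against P53 KO -0.17 to 0.62 with 1 library left out. Lmo2 in P53 KO against WT was -0.12, -0.12 and -0.21 under those same 3. Fli1 in Chd8 KO against WT was -0.01 with its most abundant transcript. With 1 library left out, Fli1 ran from -0.00 to 0.08 and Gata2 from -0.12 to 0.01 in that comparison, and Gfi1b from -0.20 to 0.30 in DKO against WT. The cause of these turns was not tested. Deviations of same-numbered libraries had correlations of -0.25 to 0.12 over 18 pairs, against -0.22 to 0.24 over 36 others. Between Chd8 KO and WT the same-numbered pairs stood at 0.12, 0.09 and 0.05. With 3 libraries a group such values cannot exclude pairing, and whether the numbers pair the samples is not known. The replicate block left 1 of the 10 factors called in Chd8 KO against WT and 1 in DKO against Chd8 KO, Runx1 in both, where Gfi1b had adjusted p of 0.0754 and 0.0738. No fit on only the groups compared exists for the interaction. Depth is unknown, and 3 libraries a group limit the precision.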

Other observations

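Some members of the associated gene lists were called in DKO against Chd8 KO as well. Of the 23 complex partners 3 were higher and 2 lower, of the 17 related factors 3 higher and 0 lower, of the 22 other regulators 3 higher and 1 lower, and of the 19 targets 4 higher and 0 lower, where 6.32% of all tested genes were higher and 4.21% lower. When Y-linked TPM was added as a covariate the calls over all genes became 90 higher and 95 lower, in place of 832 and 554. Tcf3 was higher in DKO by 0.46 ± 0.09 (adjusted p = 0.00933). Zbtb16 was higher by 1.06 ± 0.16 (adjusted p = 0.00314), Satb1 by 1.73 ± 0.33 (adjusted p = 0.00902) and Flt3 by 1.74 ± 0.36 (adjusted p = 0.0131). All 4 lost their calls with that covariate and without DKO replicates 2 and 3 together, at adjusted p of 0.0997 to 0.261, and Flt3 also without DKO replicate 3. Tcf3 and Satb1 lost them with the most abundant transcript too. Ctbp2 was lower in DKO by 0.42 ± 0.11 (adjusted p = 0.0365) and Id1 lower by 1.35 ± 0.32 (adjusted p = 0.0249). Both lost their calls with the covariate, without DKO replicates 2 and 3 and with no filter on low values. Ctbp2 also lost its call with the most abundant transcript, and without DKO replicate 1 or 3 or any Chd8 KO library, and Id1 without DKO replicate 1 or 3 or Chd8 KO replicate 1 or 2. This comparison shares its Chd8 KO libraries with Chd8 KO against WT, so a gene low in Chd8 KO appears in both, and in it sex and genotype cannot be told apart.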
